A study of Miniopterus schreibersii with 14 samples.

Results

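In the embryonic bat hand the tissue between forelimb digits II and V is kept as wing membrane. It was compared here with the tissue between forelimb digits I and II and with the tissue between the hindlimb digits. The comparison used 3 of the 14 libraries of the series, all from embryos of a bent-wing bat (Miniopterus schreibersii) at stages S15-17. They are called here by their library names, FF for the wing web, FW for the web beside digit I and HW for the foot web. Each part had 1 library and no replicate. The labels do not say whether a library held 1 embryo or several, or whether libraries share embryos, and no allele or treatment is named. Markers of the tissue could not be checked, since the measured units carry no gene names.

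The other libraries of the series are used only to describe the same components elsewhere. Digits of the same regions and stages are forelimb digits II-V (FD), forelimb digit I (FI) and hindlimb digits I-V (HD). Stage S14 is covered by anterior, middle and posterior parts of the forelimb bud (FA, FM, FP) and of the hindlimb bud (HA, HM, HP). Fetal metacarpals II-V (FL) and fetal metatarsals I-V (HS) complete the set.

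As background, interdigital tissue is a sheet of loose mesenchyme under ectoderm. In most limbs with free digits it is removed by programmed cell death, in which bone morphogenetic protein signalling takes part. In the bat wing the web between the long digits persists, and fibroblast growth factor signals and inhibitors of bone morphogenetic proteins are known from earlier work to be active there. The limb bud is patterned along its anterior to posterior axis well before digits appear, and digit I is the most anterior digit.

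The measured units are assembled components, which are pieces of transcript sequence numbered by an assembler. The deposited table does not pair them with genes, and 0 of the 64618 identifiers matched a RefSeq table of 22775 genes of this species, so no component is given a gene name or function. The values are scores, normalized counts that had been rounded to whole numbers. A score of 1.65 in FF, 1.44 in FW and 1.36 in HW corresponds to 1 read, as worked out from the scores. Reads recovered in this way summed to 5563074, 6483035 and 6828498 in these libraries. Across the series the sums were 4550754 to 7648427. Such sums cover the deposited components only and are not the sequencing depth. Only components averaging 20 or more over FF, FW and HW were kept, which left 16450. A component was counted as different when FF was over 2-fold above both other webs, or over 2-fold below both, on the scale of score + 1.

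FF stood over 2-fold above both other webs in 69 components, 0.419% of those kept, and over 2-fold below both in 275, or 1.67%. Past 4-fold the counts were 11 higher (0.0669%) and 36 lower (0.219%). Among the kept components the wing web was more often the low one of the 3 webs than the high one at both folds. The filter on low scores uses the mean of the same 3 webs. At an equal highest score it passes a component low in FF alone more readily than one high in FF alone. How much of the order of these counts comes from the filter was not tested. With no filter on low scores the order turned at 2-fold, with 3922 higher and 2462 lower, and not at 4-fold, with 378 higher and 562 lower. However, 1 read rounds to a score of 2 in FF and of 1 in FW and HW. On the score + 1 scale, 1 read in FF alone therefore passes 2-fold above webs at 0. With 1 read each in FW and HW and FF at 0, the difference is exactly 2-fold and is not counted. The turn at 2-fold therefore cannot show what the filter does to the order. The median log2 difference over all kept components was -0.02 against FW and -0.04 against HW. Near the threshold, 13 of the 69 and 47 of the 275 had a smaller log2 difference of no more than 1.1, and 34 and 83 others lay between 0.9 and 1.

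**Figure D1:**
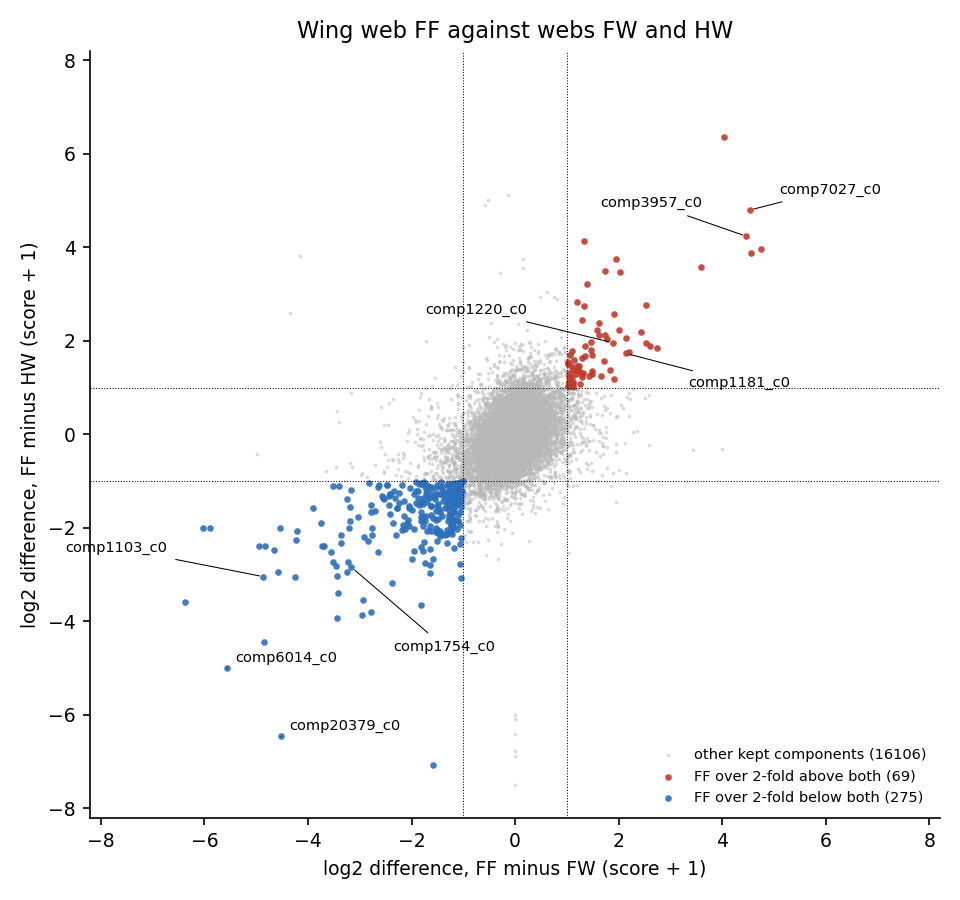
Each point is 1 of 16450 kept components, with the log2 difference of the wing web FF from the web beside digit I (FW) on the horizontal axis and from the foot web (HW) on the vertical axis, both on the score + 1 scale. The 69 red points lie over 2-fold above both webs and the 275 blue points over 2-fold below both, and dotted lines mark 2-fold.

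Which web stood apart in the most components depended on the fold. FF lay over 2-fold outside both other webs in 344 components, FW in 344 and HW in 413, while past 4-fold the totals were 47, 42 and 33. At 2-fold FW was above both others in 227 components (1.38%) and below both in 117 (0.711%), while HW was above in 178 (1.08%) and below in 235 (1.43%). Past 4-fold, FW was above both others in 35 (0.213%) and below in 7 (0.0426%), and HW in 14 (0.0851%) and 19 (0.116%). Directly compared, FW was over 2-fold above HW in 676 components (4.11%) and below in 514 (3.12%). FF had the smallest number above among the webs at both folds and the largest number below. At 1.5-fold it still had the smallest number above, at 377 against 641 for FW and 931 for HW, but HW had the largest number below, at 1123 against 806 for FF and 482 for FW. With 1 library per part these counts have no error between libraries and the difference between them was not tested. Each web enters all of these counts, so a component high in FW alone cannot also be counted for FF.

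**Figure D2:**
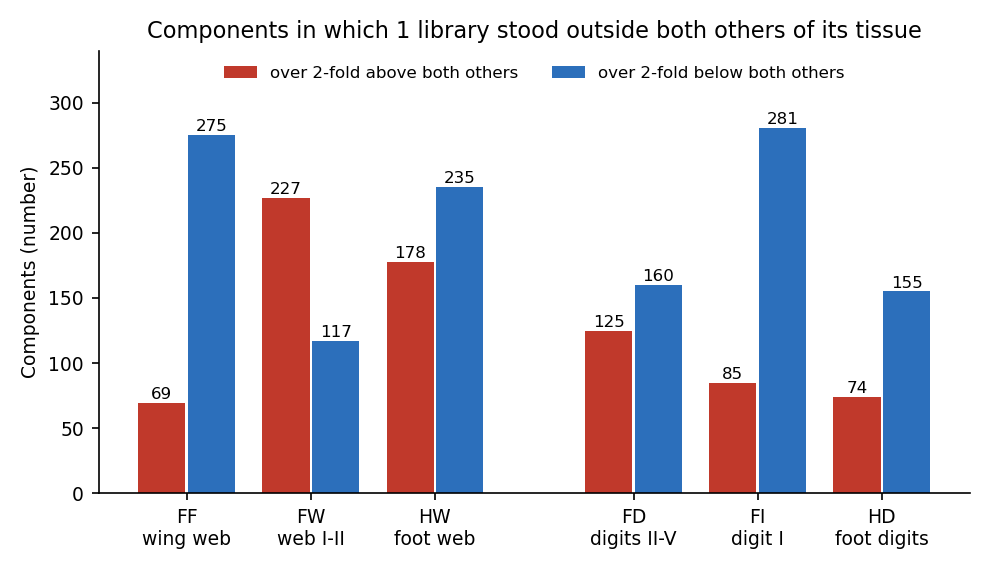
Bars give the number of kept components in which 1 library was over 2-fold above (red) or below (blue) both other libraries of its tissue, for the 3 webs and the 3 digit libraries. FF has 69 above and 275 below, against 227 and 117 for FW.

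Most components that set the wing web apart were scarce. Of the 69 higher ones, 41 had a mean score of 20 to 50, 13 of 50 to 100, 12 of 100 to 500 and 3 of 500 or more. The 275 lower ones divided into the same classes as 148, 55, 57 and 15. The lowest class held 59.4% of the higher and 53.8% of the lower components, against 22.5% of all kept, and the highest class 4.35% and 5.45%, against 26.6%. For 68 of the 69 higher and 221 of the 275 lower components, the exact 95% intervals of both read ratios excluded 1. Over all kept components this was so for 877 (5.33%) on the higher side and 1370 (8.33%) on the lower side, and the lists were chosen on the same ratios. Such intervals cover counting error only, not the difference between embryos or between libraries. For 22 higher and 46 lower components both intervals lay wholly past 2-fold.

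The component that led the higher list was comp7027_c0. It scored 415 in FF, 17 in FW and 14 in HW, which is 24.4-fold above FW (95% interval 13.4 to 46.9) and 29.6-fold above HW (16.3 to 64.3). The wing digits shared the high level, at 184 in FD against 11 in FI and 21 in HD. At S14 it scored 80, 333 and 249 in anterior, middle and posterior forelimb bud and 96, 215 and 187 in hindlimb bud. Levels in the web beside digit I and in the foot web therefore lay below every bud library, while FF lay above all of them. In the fetal limb it scored 116 in metacarpals and 3 in metatarsals.

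Next came comp3957_c0, with 375 in FF, 16 in FW and 19 in HW. Its ratios were 23.4 (12.9 to 47.9) to FW and 19.7 (11.5 to 36.6) to HW. Unlike comp7027_c0 it was not higher in the wing web than in the wing digits, where FD scored 456, against 28 in FI and 26 in HD. The FF score lay within the range of the 3 forelimb buds, at 210, 537 and 450. These 2 components thus had a like fold in the web and a different order of web and digit within the wing.

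Where the mean score reached 500, and counting error is small, only 3 components lay over 2-fold above both webs. The first was comp1220_c0, at 2291 in FF, 618 in FW and 589 in HW, a ratio of 3.71 (3.32 to 4.14) to FW and 3.89 (3.49 to 4.34) to HW. The second was comp1181_c0, at 1112 in FF, 251 in FW and 335 in HW, with ratios of 4.43 (3.74 to 5.25) and 3.32 (2.86 to 3.86).

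The profiles of comp1220_c0 and comp1181_c0 ran side by side through the other libraries. In forelimb bud comp1220_c0 scored 520 in the anterior part against 4664 in the middle and 3908 in the posterior part. For comp1181_c0 the same parts scored 286, 1871 and 1956. Both were lowest in digit I among the digits: comp1220_c0 scored 107 in FI, 1978 in FD and 754 in HD. The scores of comp1181_c0 were 19 in FI, 1030 in FD and 368 in HD. On the thumb side the web held more than the digit, 5.78-fold (4.31 to 7.92) for comp1220_c0 and 13.2-fold (6.73 to 29.1) for comp1181_c0. In the foot, digits and web lay close together, with HW at 0.781 (0.683 to 0.895) of HD for comp1220_c0 and 0.91 (0.754 to 1.1) for comp1181_c0. For both components the lowest score at stages S15-17 was in digit I and the lowest of the forelimb buds in the anterior part. The anterior part was also the lowest in hindlimb bud. Its anterior, middle and posterior parts scored 671, 2091 and 1419 for comp1220_c0 and 265, 864 and 549 for comp1181_c0. Fetal metacarpals and metatarsals scored 320 and 95 for comp1220_c0 and 173 and 34 for comp1181_c0.

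**Figure D3:**
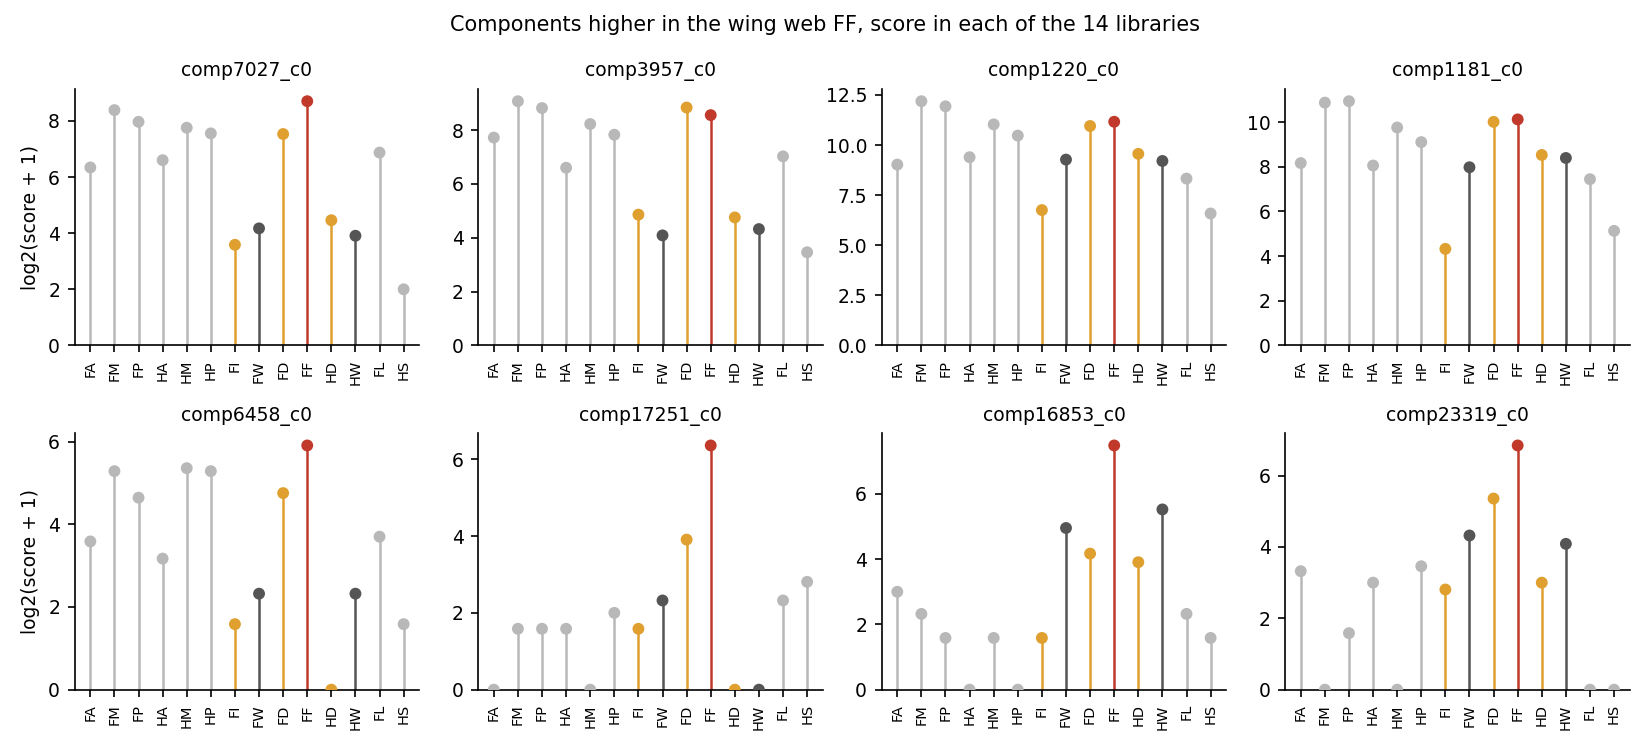
Each panel gives the score of 1 component in the 14 libraries as log2(score + 1), with FF in red, FW and HW in dark grey, digit libraries in amber and buds and fetal libraries in light grey. The 2 abundant components comp1220_c0 and comp1181_c0 show low anterior bud (FA) and digit I (FI) values, and comp17251_c0 and comp16853_c0 peak in FF.

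The higher list was shared in part with the wing digits, which are separate libraries. In FD, 22 of the 69 components (31.9%) were also over 2-fold above both FI and HD, against 0.76% of all kept components. Regardless of size, 56 of 69 lay above both FI and HD, against 31.5% of all. The median log2 difference of FD from the mean of FI and HD was 1 in the list and -0.01 over all kept components. The overlap held in both abundance classes, with 6 of 15 among components with a mean of 100 or more, where 0.144% of all did so, and 16 of 54 below that, where 1.81% did. None of the 69 was over 2-fold below both FI and HD, against 0.973% of all, a share too small for 69 components to fall clearly below. Seen from the digits, the 22 shared components were 17.6% of the 125 that set FD apart upward, against 0.419% of all kept components. Past 4-fold, FD lay above both FI and HD in 11 kept components (0.0669%) and below both in 18 (0.109%).

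Of those shared across the wing, comp3957_c0 had the widest smallest difference and comp6458_c0 the next. The latter was scarce, at 59 in FF against 4 in FW and 4 in HW, and 26 in FD against 2 in FI and 0 in HD. It had 36 reads in FF and 3 in each other web, a ratio of 14.8 (4.33 to 69.6) to FW and 14.8 (4.6 to 73.9) to HW. Forelimb buds scored 11, 38 and 24, hindlimb buds 8, 40 and 38, and the fetal libraries 12 and 2.

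Other components were higher in the wing web than in the wing digits as well. In 28 of the 69, FF lay over 2-fold above FD, where 3.07% of all kept components did. FF enters both sides of that count, which by itself raises the share. The widest such difference was that of comp17251_c0, which scored 81 in FF, 4 in FW, 0 in HW and 14 in FD. FF was at least 19.8-fold above HW, set against a floor of 3 reads, and 20.2-fold (6.03 to 93.7) above FW and 5.79-fold (2.73 to 14.2) above FD. It scored between 0 and 3 in the 6 buds and 4 and 6 in the fetal libraries, so FF was the single library with more than 14. Next, comp16853_c0 scored 178 in FF, 30 in FW, 45 in HW and 17 in FD. It was 5.93-fold (3.66 to 9.88) above FW and 10.5-fold (5.37 to 22) above FD, with 0 to 7 in the buds, 2 in FI, 14 in HD and 4 and 2 in the fetal libraries.

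Compared with the forelimb buds, 27 of the 69 were over 2-fold above all 3 bud libraries, against 6.07% of all kept components, and 24 lay within the bud range, against 25.6%. In 10 of the 69, FW and HW were both over 2-fold below all 3 buds, against 0.657% of all. These counts reuse the FF, FW and HW scores by which the list was chosen, so the shares cannot be read against those of all components. Stage and dissection cannot be told apart here. The widest difference of FF above both webs and all 3 forelimb buds was that of comp17251_c0, described above, followed by comp23319_c0. The latter scored 114 in FF, 19 in FW and 16 in HW, and 9, 0 and 2 in the forelimb buds. It was 6-fold (3.33 to 12) above FW and 7.12-fold (3.75 to 14.2) above HW, with 40 in FD, 6 in FI and 7 in HD. Fetal metacarpals and metatarsals were listed at 0.

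The lists also differed from all kept components by position in the bud. In forelimb bud, 25 of the 69 higher components (36.2%) were over 2-fold higher in both the middle and the posterior part than in the anterior part, against 2.95% of all kept components. The opposite order was seen in 1 of the 69 (1.45%), near the 1.01% of all. The lower list leaned the other way: 32 of 275 (11.6%) were over 2-fold lower in both FM and FP than in FA. In that list 19 of 275 (6.91%) had the order of the higher list, against 2.95% of all. In the hindlimb bud 7 of 69 were over 2-fold higher in both HM and HP than in HA, against 0.699%, and 12 of 275 were lower, against 0.559%.

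By abundance, 8 of the 15 higher components with a mean of 100 or more had the middle and posterior pattern in forelimb bud, where 1.1% of such components did. Among the lower ones with that mean, 12 of 72 had the anterior pattern, where 0.347% did. With a mean under 100, 17 of 54 higher components had the middle and posterior pattern, against 6.12% of all such components. In that class 20 of 203 lower ones had the anterior pattern, against 2.14%. The middle and posterior pattern was seen in 15 of these 203, near the 6.12% of all, and in 4 of the 72, against 1.1%. The buds are other libraries than the 3 webs, but FA, as 1 library, enters every one of these forelimb counts. The sign of the limb difference gave no such contrast. Forelimb was above hindlimb in all 3 bud pairs for 13 of 69 higher (18.8%) and 52 of 275 lower components (18.9%), against 14.5% of all.

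**Figure D4:**
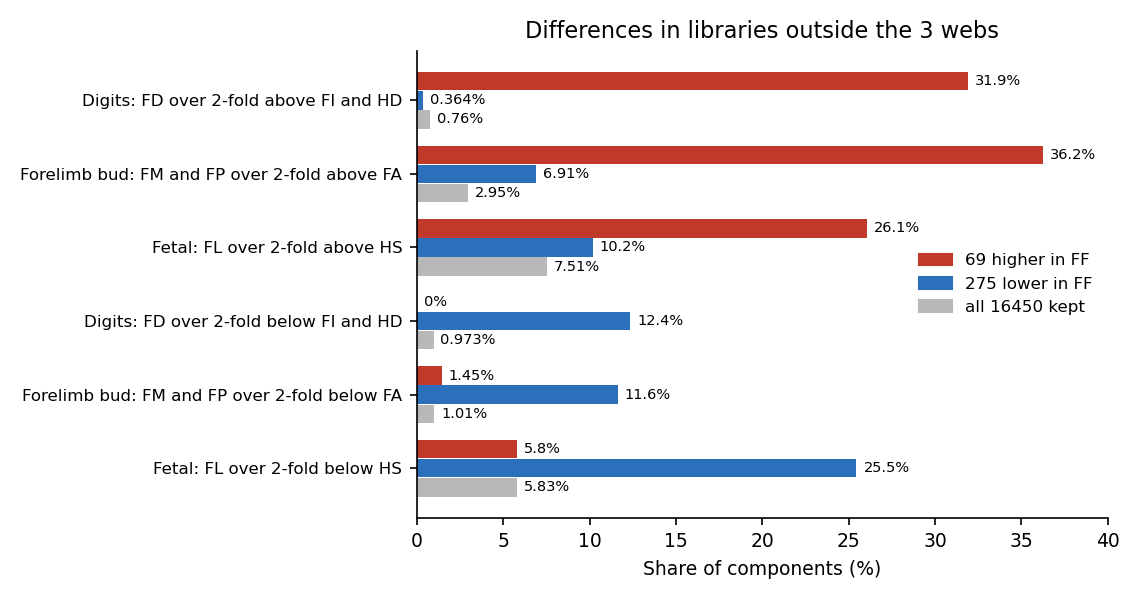
Bars give the share of components, in percent, that met each condition in libraries other than the 3 webs, for the 69 components higher in FF (red), the 275 lower in FF (blue) and all 16450 kept (grey). The red bars stand out for the wing digits, the middle and posterior forelimb bud and the fetal metacarpals, and the blue bars for the reverse of each.

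The lower list was led by components at 0 in FF. The first, comp6014_c0, scored 0 in FF, 46 in FW and 31 in HW, so FW was at least 9.28-fold and HW at least 6.26-fold higher against the floor of 3 reads. Digits scored 30 in FD, 19 in FI and 51 in HD, the forelimb buds 22, 42 and 29, and the hindlimb buds 18, 4 and 11. FF was the only library of the 14 at 0 for this component. The middle hindlimb bud (HM), at 4, also lay under its own floor of 3 reads, a score of 6.25. It reached 568 in fetal metacarpals and 4929 in fetal metatarsals. The second, comp20379_c0, scored 0 in FF, 22 in FW and 87 in HW, with HW at least 17.6-fold and FW at least 4.44-fold higher. It was at 0 to 5 in the buds, 21 in FD, 28 in FI and 151 in HD, and at 6 in metacarpals and 304 in metatarsals. For this component the level in the buds was as low as in FF, so the difference lay with higher levels in the other late libraries.

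Where the mean reached 500, comp1103_c0 and comp1754_c0 led the lower list. The score of comp1103_c0 was 43 in FF, 1276 in FW and 362 in HW, so FW was 29.7-fold (20.1 to 45.7) and HW 8.42-fold (5.63 to 13.1) higher. It scored 2705, 1732 and 1306 in the forelimb buds and 3130, 2364 and 3405 in the hindlimb buds. Every bud was above every late library except FI, which lay above FP. Wing digits were intermediate, with FD at 294 against 1641 in FI and 757 in HD. In each late region it was lower in the web than in the digit, and FF lay 6.84-fold (4.51 to 10.8) below FD. The fetal libraries scored 5 and 74. It was also the second component by the smallest difference of FF below both webs and all 3 forelimb buds, after comp6014_c0. In all, 97 of the 275 (35.3%) had FF over 2-fold below all 3 forelimb buds, against 3.03% of all kept components, where FF again enters both sides. In 46 of the 275, FW and HW were both over 2-fold above all 3 forelimb buds, against 3.58% of all, a count that reuses the FW and HW scores by which the list was chosen.

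The other abundant component, comp1754_c0, was low in the wing web and in no other library to the same degree. It scored 101 in FF, 910 in FW and 731 in HW, so FW was 9.01-fold (6.94 to 12) and HW 7.24-fold (5.56 to 9.62) higher. The digits lay close together at 1212 in FD, 1098 in FI and 1026 in HD, and FF was 12-fold (9.25 to 15.9) below FD. The forelimb buds held 386, 968 and 376, the hindlimb buds 4729, 617 and 2775, and the fetal libraries 558 and 527. FF was the lowest of the 14 libraries, 3.72-fold (2.8 to 5.03) below the next, FP.

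**Figure D5:**
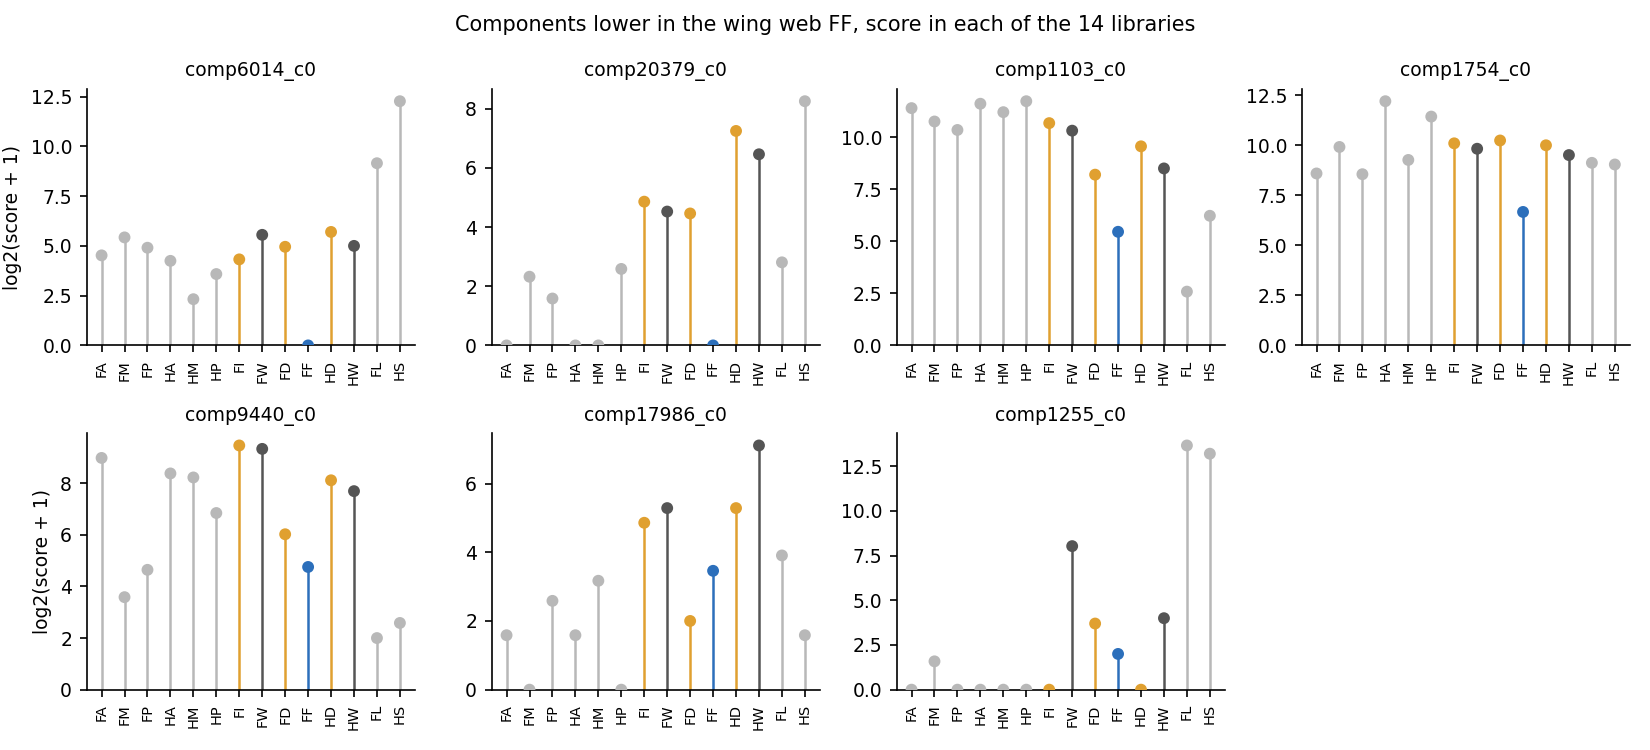
Each panel gives the score of 1 component in the 14 libraries as log2(score + 1), with FF in blue, FW and HW in dark grey, digit libraries in amber and buds and fetal libraries in light grey. FF is the lowest library for comp6014_c0 and comp1754_c0, and comp9440_c0 is low in FM, FP, FD, FF and both fetal libraries.

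The lower list was also shared in part with the wing digits. In FD, 34 of 275 (12.4%) were over 2-fold below both FI and HD, against 0.973% of all kept components, and 144 (52.4%) lay below both at any size, against 36.4%. The median log2 difference of FD from the mean of FI and HD was -0.38, against -0.01 over all kept components. Where the mean was 100 or more, 13 of 72 were shared, against 0.27% of all such components. In 1 of the 275 (0.364%), FD was over 2-fold above both FI and HD, against 0.76% of all. Relative to the wing digits, FF was over 2-fold below FD in 149 of 275 components, where 3.47% of all were, with FF on both sides of the count. For scale, the upward list of the web beside digit I recurred in digit I for 20 of 227 components (8.81%, against 0.517% of all kept) and its downward list for 23 of 117 (19.7%, against 1.71%). For the foot web the counts in foot digits were 12 of 178 (6.74%, against 0.45%) and 24 of 235 (10.2%, against 0.942%). As shares of the digit lists, the upward overlap was 23.5% on the thumb side, 17.6% in the wing and 16.2% in the foot. Of all kept components, the upward web lists held 1.38%, 0.419% and 1.08% in that order. The downward overlap was 8.19%, 21.2% and 15.5%, against 0.711%, 1.67% and 1.43% of all. Since these backgrounds differ, the regions cannot be ranked by the overlap shares alone. The thumb side and foot shares were not tested against those of the wing.

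Of the components low throughout the wing, comp9440_c0 had the widest smallest difference. It scored 26 in FF, 643 in FW and 206 in HW, and 64 in FD, 705 in FI and 276 in HD. FW was 24.7-fold (14.8 to 42.9) and HW 7.92-fold (4.64 to 14) above FF. In forelimb bud it scored 504 in the anterior part, 11 in the middle and 24 in the posterior part, while hindlimb bud had 332, 298 and 114. The low wing values thus lay near those of middle and posterior forelimb bud, and the thumb side near the anterior part. Both fetal libraries were lower still, at 3 in metacarpals and 5 in metatarsals, so a low level was not confined to the forelimb. The next was comp17986_c0, at 10 in FF, 38 in FW and 137 in HW, and 3 in FD, 28 in FI and 38 in HD. Bud libraries held 0 to 8 of it, so its difference, unlike that of comp9440_c0, was between late libraries.

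In the fetal skeleton the lists also parted. Of the 69 higher components, 18 (26.1%) were over 2-fold higher in metacarpals than in metatarsals, against 7.51% of all kept components, and 4 were over 2-fold lower, against 5.83%. Of the 275 lower ones, 70 (25.5%) were over 2-fold lower in metacarpals, against 5.83%, and 28 (10.2%) higher, against 7.51%. Scarce components passed these folds more often. Of higher components, 11 of 54 with a mean under 100 were higher in metacarpals, against 12% of all such, and 7 of 15 others, against 4.92%. Of lower components, 49 of 203 under 100 were lower in metacarpals, against 9.43%, and 21 of 72 others, against 3.73%. In the opposite direction 25 of 203 were near the 12% of all, and 3 of 72 near 4.92%. Past 4-fold, 7 of the 69 were higher in metacarpals, against 2.16%, and 27 of the 275 were lower, against 1.34%. In 32 of the 275 (11.6%), both fetal libraries were over 4-fold above all 3 webs, as for comp6014_c0, against 1.98% of all. That count reuses the FF, FW and HW scores by which the list was chosen, so the 2 shares cannot be read against each other. Each fetal part had 1 library. In such dissected pieces, fewer cells of a type and less RNA per cell cannot be told apart.

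Whether the wing difference was of another size in web than in digits was tested with limma over the 6 libraries of stages S15-17. The thumb side and the foot stood as the 2 non-wing libraries of each tissue, so the p-values measure the spread between these regions and not between embryos. Of 16311 components averaging 20 or more over those 6, 0 were called at an adjusted p under 0.05 (0%), and 282 had an unadjusted p under 0.05. That is a smaller share than the 0.05 that evenly spread p-values would give. With 2 residual degrees of freedom, the lack of calls does not show that the wing difference was alike in web and digits. limma voom on recovered reads also called 0, with 221 at an unadjusted p under 0.05.

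The component with the smallest p was comp1754_c0, with an interaction of -3.19 on the log2 scale (SE 0.34, limma adjusted p = 0.119). It was called, alone, with upper-quartile scaling (limma adjusted p = 0.0407), median-centred libraries (0.012) and robust shrinkage (0.0187), and not in the other alternatives with a filter on low values. For comp6014_c0 the interaction was -5.22 (SE 1.06) and for comp1103_c0 it was -2.03 (SE 0.95), both with a limma adjusted p of 0.999. The interaction was 0.32 (SE 0.57) for comp3957_c0 and 1.15 (SE 0.74) for comp7027_c0. For comp6458_c0 and comp17251_c0 there was no fit, since their mean over the 6 libraries was under 20.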

How the data were processed

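Per the submitters' processing notes, CASAVA 1.8, RSEM and edgeR were used, without role or order; the assembly and normalization are not given in the sources used here. The deposited scores are the authors' normalized counts, rounded to whole numbers. Reads were recovered from them as the widest step of which the low scores (up to 2000) are rounded multiples, and over all nonzero scores at least 99.99% matched. Differences are of log2(score + 1), where FF, FW and HW averaged 20 or more. With 1 library per part there is no test of these. Ratios of single scores have exact conditional 95% intervals, covering counting error only. The floor for a score of 0 is 3 reads in that library.

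The interaction of wing and tissue was fitted with limma 3.58.1 (trend) in R 4.3.3, Benjamini-Hochberg adjusted over all kept components, two-sided, and tested on simulated data. Other steps used Python 3.11.15 with scipy 1.17.1, pandas 2.3.3, numpy 2.4.6 and, for plots, matplotlib 3.10.9. Named components, at most 2 per direction, had the largest smallest difference of FF from FW and HW alone, with a mean of at least 500, with the digits in the same or opposite direction, with FD, or with the forelimb buds. Members, lists and tests were chosen with earlier results of these data known. The bud position, abundance split and fetal counts were chosen after seeing the data.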

Additional observations from a re-analysis of the deposited data

Results flagged for a closer look

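One component lay on opposite sides in web and digits, past 2-fold in all 4 comparisons. It was comp1255_c0, at 3 in FF, 261 in FW and 15 in HW, and at 12 in FD against 0 in FI and 0 in HD. The smallest of its log2 differences was -2, that of FF from HW, where FF held 2 reads and HW 11, and the 95% interval of the ratio of HW to FF ran from 0.989 to 42.1. FD held 7 reads. Its scores in fetal metacarpals and metatarsals were 13004 and 9449, and between 0 and 2 in the 6 buds. The interaction of wing and tissue was -7.72 (SE 2.09) with a limma adjusted p of 0.999, so the difference between the tissues was not called. There are no replicates of any of these parts. No component had the reverse pattern, higher in the wing web and lower in the wing digits, past 2-fold in all 4 comparisons.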

How the results depend on the processing

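In the main analysis FF was over 2-fold above both webs in 69 components and below in 275, over 4-fold in 11 and 36, shared with digits in 22 and 34, and over 2-fold outside the forelimb buds in 27 and 97. In that order, the counts were 173, 527, 19, 75, 39, 58, 82 and 151 with a mean score of at least 10. They were 28, 127, 5, 19, 10, 17, 8 and 44 with at least 50. With no filter they were 3922, 2462, 378, 562, 641, 250, 1390 and 694. The higher side was then larger at 2-fold, where the rounding of single reads favours FF, as described above. Requiring the exact intervals to lie wholly past the fold gave 22, 46, 6, 8, 14, 11, 8 and 22. Against FW alone, 291, 642, 32 and 130 were past 2-fold and 4-fold and 87 of the higher ones lay above the buds. Against HW alone the counts were 485, 724, 45, 94, 44, 53, 151 and 165. At 1.5-fold, 377 lay above and 806 below. A pseudocount of 5 left 63 below the buds. Upper-quartile scaling gave 77 above and 271 below, and median-centred libraries 78 and 281, with all 69 higher components kept under both.

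The interaction test called 0 components. It called 2395 with no filter, where the called components had a median mean score of 0.333, and 1 each with upper-quartile scaling, median-centred libraries and robust shrinkage. Leaving out FI, FW, HD or HW in turn also gave 0, which says nothing of stability in a design this small. Under the other scalings, all 30 values of the 15 named components stayed within the counting interval of the main value. Each scaling multiplies a whole library by a single factor, and these factors were close together. The median log2 difference of FF from FW went from -0.018 to 0.006 and 0.021. That the named values stayed within their intervals therefore says little. The bud position and fetal shares, chosen after seeing the data, stayed above those of all components under the 8 alternatives run on them. With no filter the gap nearly closed: 11.4% of the higher list had the middle and posterior bud pattern against 8.81% of all, and 8.65% of the lower list the anterior pattern against 8.1%. No paired analysis was possible because each part has 1 library and the labels carry no replicate numbers. Depth limits the scarce components most: 41 of 69 higher and 148 of 275 lower ones had a mean score under 50.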

Other observations

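The 69 higher components together scored 13391 in FF, 3797 in FW and 3267 in HW. They scored 12202 in FM and 13483 in FP against 4165 in FA, and 8929 in FD against 2424 in FI and 4067 in HD. Without comp1220_c0, the most abundant of them in FM and FP, the sums there were 7538 and 9575, and without it FA held 3645. In hindlimb bud the higher components scored 6779 in HA, 7155 in HM and 9188 in HP. The fetal sums were close together, at 5520 in FL and 5172 in HS. The 275 lower components together scored 14030 in FF, 46775 in FW and 43366 in HW, while the digits held 34090 in FD, 49711 in FI and 49102 in HD. In the buds they scored 48053 in FA, 41555 in FM and 39179 in FP, and 48355 in HA, 47283 in HM and 45832 in HP. In the fetal libraries they scored 99464 in metacarpals and 302538 in metatarsals, which is 1.01% and 2.88% of those libraries. Their share was 0.358% in FD, 0.511% in FI, 0.503% in HD and 0.379% to 0.465% in the buds. In FF it was 0.153%, which is low by the choice of the list. The most abundant of the lower components made up 27.8% of the metatarsal sum. The differences between the FF, FW and HW sums follow from how the lists were chosen, and those outside the 3 webs do not.

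An assembly number was shared with another component by 6 of 69 higher components (8.7%) and 4 of 275 lower ones (1.45%), against 1285 of the 16450 kept (7.81%). Within the higher list 1 pair shared a number.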
